A study of Mus musculus with 48 samples.

Results

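Voltage-gated calcium and sodium channel subunits and the hyperpolarization-activated HCN channels were followed in RNA-sequencing data of the mouse hippocampal Cornu Ammonis (CA). The members are the genes whose symbol opens with Cacna, Cacnb, Cacng, Scn or Hcn followed by a digit, and 44 of the 24421 genes in the table met this rule. The values of 41 of them are described and counted here. Of these 41, 37 were tested among 15570 genes when all 48 libraries were analyzed together, and 36 were tested in the analyses of 12 or 24 libraries. The study used male mice with an age label of 8 weeks, all from crosses with floxed alleles of the cannabinoid receptor CB1. In the Glu-CB1 line, Cre recombinase under Nex control deletes CB1 in dorsal telencephalic glutamatergic neurons, and in the GABA-CB1 line Cre under Dlx5/6 control deletes it in forebrain GABAergic neurons. Conditional CB1-KO mice and CB1-WT littermates were taken either from the home cage (basal) or after 5 min in an open field, a box that was new to the mouse. By the paper's account, the tissue was isolated an hour after the open field. Each mouse gave 1 library. The Glu-CB1 line had 5 CB1-WT and 7 CB1-KO mice in either state, and the GABA-CB1 line had 6 of each genotype in the basal state and 7 CB1-WT with 5 CB1-KO mice after the open field. The tissue is a bulk dissection without the dentate gyrus and holds neurons and glia, so a change in the number of cells of a type and a change of RNA per cell cannot be told apart.

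Calcium channels are built around a pore-forming subunit (Cacna1 genes), with alpha-2-delta (Cacna2d) and beta (Cacnb) subunits that carry it to the membrane and set its gating. The Cacng genes encode gamma subunits, most of which in brain are known as TARPs, which traffic and gate AMPA receptors. Sodium channels pair a pore-forming subunit with beta subunits and carry the upstroke of the action potential. HCN channels open when the membrane hyperpolarizes and pass the h-current, which in CA1 pyramidal neurons dampens the summation of dendritic inputs.

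Between 25892654 and 34091080 reads were counted on genes per library, and the 41 members took between 0.487% and 0.541% of them. Cnr1, the gene that encodes CB1, ran from 208 to 248 CPM (read counts scaled to library size after TMM normalization) in basal Glu-CB1-KO libraries against 338 to 412 CPM in their CB1-WT libraries, and from 141 to 159 CPM in basal GABA-CB1-KO libraries against 310.4 to 391 CPM. After the open field it ran from 203 to 250.2 CPM against 329.7 to 396 CPM in the Glu-CB1 line and from 101 to 156 CPM against 337 to 393 CPM in the GABA-CB1 line, without overlap in any of the 4 pairs of groups. The 5 markers of CA1 pyramidal cells summed to between 649 and 906 CPM per library and the 6 markers of the removed dentate gyrus to between 147 and 401 CPM. Single genes of both lists overlapped in level, as with Stxbp6 (58.0 to 143 CPM) of the dentate list and Pou3f1 (33.4 to 53.6 CPM) of the CA1 list. A set of 14 libraries, with between 1 and 3 in each group, stood apart on the first principal component (27.6% of the variance), and 3 further libraries had high choroid plexus markers: Glu-CB1-KO basal replicate 6, GABA-CB1-WT basal replicate 3 and GABA-CB1-KO open field replicate 4, with summed levels of 624, 1482 and 4018 CPM against 38.3 to 276 CPM in the other 45. Animal numbers in the labels fall into 3 ranges per line, and 9 of the 14 libraries were among the 11 Glu-CB1 libraries of the lowest range, 5 were among the 13 GABA-CB1 libraries of the lowest range, and 0 were among the 24 libraries of the higher ranges. What the ranges stand for is not given in the sources used here. Results that rest on these libraries are given with and without them.

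The levels of the members were compared per kb of exon, since these genes differ in length. An order that holds over libraries describes their spread, not whether the exon length fits each gene. Among the pore-forming calcium channel subunits, Cacna1e, which carries the R-type current, was highest with the exon lengths deposited with the counts. It stood at 36.5 ± 4.18 CPM per kb (SD, n = 48). It was followed by Cacna1a, the P/Q-type channel of presynaptic terminals, at 31.5 ± 2.15 and by Cacna1b, the N-type channel of the same terminals, at 21.4 ± 1.09 CPM per kb. Cacna1e exceeded Cacna1a in 41 of 48 libraries, and Cacna1a exceeded Cacna1b in 48 of 48. Before division by length, Cacna1e and Cacna1a had means of 464 and 249.9 CPM. Their deposited exon lengths are 12697 and 7929 bp, and their longest coding transcripts in GENCODE vM21 have 14921 and 7926 bp. Which of Cacna1e and Cacna1a leads per kb therefore depends on the length used. Cacna1h, a T-type channel that opens at low voltage, stood at 18.6 ± 2.17 and the L-type channel Cacna1c at 12.98 ± 0.97 CPM per kb. The remaining neuronal subunits lay within each other's spread: Cacna1g (T-type) at 10.5 ± 1.18, Cacna1d (L-type) at 9.86 ± 0.52 and Cacna1i (T-type) at 9.42 ± 0.90 CPM per kb, with Cacna1g above Cacna1d in 34 and Cacna1d above Cacna1i in 31 of 48 libraries. The skeletal muscle channel Cacna1s and the retinal channel Cacna1f were at the floor, with between 7 and 32 and between 0 and 12 counts per library. Of the summed level of the 10 genes with the deposited lengths, Cacna1e took 24.2% ± 2.06 and Cacna1a 20.9% ± 0.91 (SD, n = 48).

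**Figure D1:**
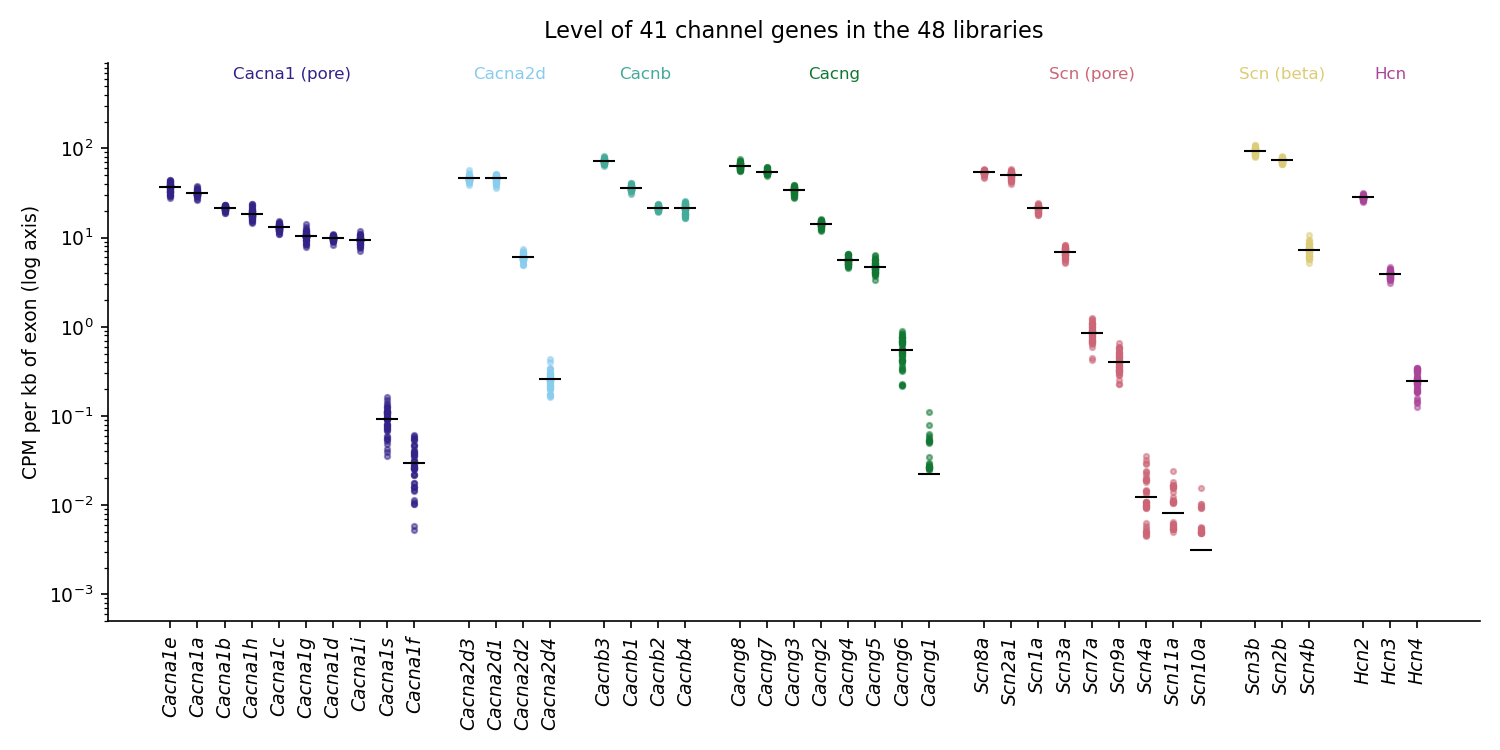
Level of 41 channel genes in CPM per kb of exon on a log axis, with a point for each of the 48 libraries (libraries at 0 are not drawn) and a bar for the mean, ordered within each family. Of the genes drawn, Scn3b was highest at 94.1 CPM per kb, and Scn10a lowest at 0.00316 CPM per kb.

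Of the auxiliary subunits, Cacna2d3 and Cacna2d1, which are alpha-2-delta subunits, could not be ordered, with 46.06 ± 3.06 and 45.98 ± 3.45 CPM per kb and 24 of 48 libraries in each order. Together they made up nearly all of the family, whereas Cacna2d2 took 6.13% ± 0.68 and Cacna2d4 0.26% ± 0.06 of it. Of the beta subunits, Cacnb3 reached 72.1 ± 3.84 CPM per kb and Cacnb1 36.1 ± 2.00, and Cacnb2 (21.7 ± 1.12) and Cacnb4 (21.4 ± 2.45) could again not be ordered. Among the gamma subunits, the hippocampal TARP Cacng8 led at 63.7 ± 4.69 CPM per kb, followed by Cacng7 at 54.9 ± 2.85, Cacng3 at 33.9 ± 2.68 and Cacng2, the gene of stargazin, at 14.2 ± 0.98. This order held in 48 of 48 libraries for each pair of neighbours. It rests on the exon lengths deposited with the counts, which are 1380, 828, 1526 and 2887 bp for these 4 genes. Their longest coding transcripts have 1897, 2212, 2777 and 5510 bp, and their means before division by length were 87.8, 45.5, 51.8 and 41.1 CPM. The 4 means keep this order over either set of lengths, but the steps between neighbours depend on the lengths. Whether the order holds in single libraries with the transcript lengths was not tested. Cacng4 (5.54 ± 0.52) and Cacng5 (4.73 ± 0.64) were lower, and Cacng6 and Cacng1, gamma subunits known from muscle, had between 5 and 23 and between 0 and 4 counts. Of the exons of Cacng8, 91 bp overlap another gene on the same strand, Gm23450, which could take or lose its reads.

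The pore-forming sodium channel genes ranged from abundant to almost undetected. Scn8a, the channel that gathers at the axon initial segment of mature neurons, stood at 53.9 ± 2.23 CPM per kb and Scn2a1, which shares that site, at 50.2 ± 4.26, in this order in 39 of 48 libraries. Scn1a, best known from fast-spiking interneurons, reached 21.2 ± 1.55 CPM per kb and Scn3a, which is highest in the developing brain, 6.88 ± 0.73. Scn7a (0.86 ± 0.19) and Scn9a (0.41 ± 0.10) were more than an order of magnitude below Scn1a, and Scn7a exceeded Scn9a in 48 of 48 libraries. Scn4a of skeletal muscle and Scn10a and Scn11a of sensory neurons had between 0 and 7 counts in any library and were not tested, as was Cacng1. In mm10, Scn3a, Scn2a1, Scn1a, Scn9a and Scn7a lie in this order between positions 65457118 and 66784910 of chromosome 2. The gap between Scn2a1 and Scn1a runs from 65767447 to 66270782. Genes of this stretch differed widely in level, from 50.2 CPM per kb for Scn2a1 to 0.41 for Scn9a.

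Of the beta subunits of sodium channels, Scn3b stood at 94.1 ± 6.81 and Scn2b at 73.6 ± 3.67 CPM per kb, and Scn4b followed at 7.29 ± 1.10, with Scn3b above Scn2b and Scn2b above Scn4b in 48 of 48 libraries. Among the HCN channels, Hcn2, the widespread form, was at 28.2 ± 1.31 CPM per kb. Hcn3 was at 3.88 ± 0.34, and Hcn4, the pacemaker form of heart and thalamus, at 0.25 ± 0.06 CPM per kb with 15 to 42 counts per library, again in this order in 48 of 48 libraries.

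Across the 8 groups the levels moved little. Among the 29 tested members with a mean of at least 10 CPM, the highest group mean exceeded the lowest by between 1.05-fold for Cacna1d and 1.25-fold for Cacna1i. Among these 29, the spread over all libraries was narrowest for Scn8a, with a coefficient of variation of 4.15%, and widest for Scn4b with 15.1%.

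A part of the spread between libraries followed the 14 libraries that stood apart. In these, Scn9a differed from the other 34 libraries by -0.42, Cacnb4 by -0.28, Cacna1e by -0.26, Scn7a by -0.26, Scn3a by -0.25 and Scn2a1 by -0.20 on the log2 scale. All of these have transcripts under 50% GC. Over the 37 tested members, the difference correlated with the GC content of the longest coding transcript in GENCODE vM21 with a Pearson r of 0.71, a description over genes that were all measured in the same libraries. Of the 12 members under 50% GC, 10 were lower in the 14 libraries, with a median difference of -0.17, and of the 25 others 14 were lower, with a median difference of -0.002. The members at the other end were Cacna1h (59.95% GC, +0.15) and Cacna1f (53.3% GC, +0.10), the latter at a few counts. The source of this split was not tested.

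The response to the open field was tested over both lines together, with 24 libraries after the open field and 24 basal ones. Cacna1i, a T-type calcium channel of neurons that fire in bursts, rose, and 0 members fell. This 1 of 37 members stands against 8.63% of all genes that were called (edgeR's quasi-likelihood test, Benjamini-Hochberg adjusted p under 0.05), 5.53% higher and 3.1% lower. At an unadjusted p under 0.05 there were 5 of 37 members, or 13.5%, against 21.5% of all genes. The members as a list lay slightly lower after the open field, with 12 of 37 higher and 25 lower and a median log2 difference of -0.03, where the median of all genes was -0.004. The share of all genes that were higher was not counted. Members also moved together: Cacnb4, Scn2a1 and Scn3a followed the first principal component over the libraries with r of 0.86, 0.81 and 0.80. The directions are thus a description only. By family, 3 of 10 pore-forming calcium channel genes, 1 of 7 gamma subunits, 1 of 4 alpha-2-delta subunits, 1 of 6 pore-forming sodium channel genes and 1 of 3 HCN genes were higher, as were 3 of 4 calcium channel beta and 2 of 3 sodium channel beta subunits.

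**Figure D2:**
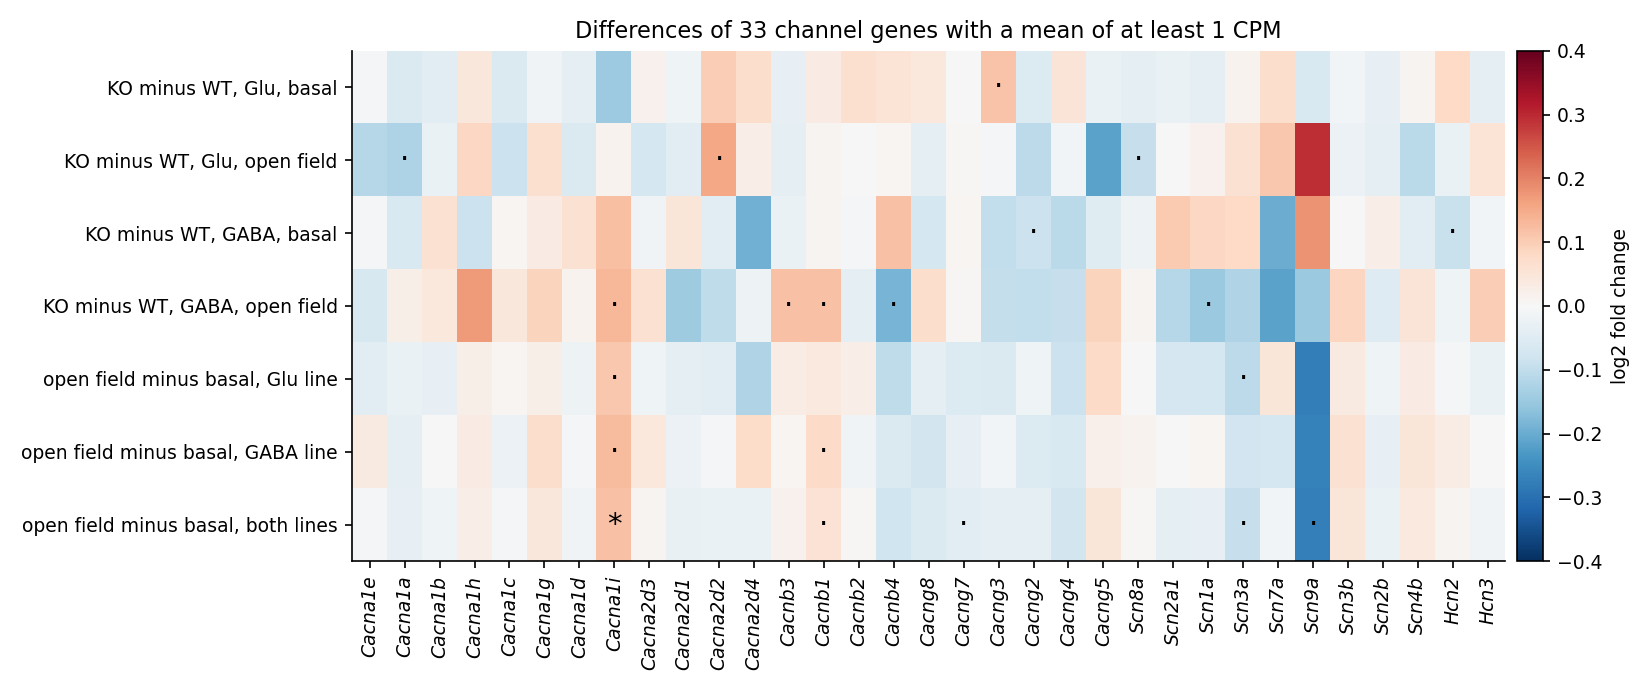
Log2 fold changes of 33 channel genes with a mean of at least 1 CPM in the 4 comparisons of KO with CB1-WT libraries and in the 3 comparisons of open field with basal libraries, with red for higher and blue for lower values, a star for an adjusted p under 0.05 and a dot for an unadjusted p under 0.05. The star of Cacna1i in the bottom row is the only one drawn, and the color scale ends at 0.4 in either direction.

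Cacna1i was at 86.1, 90.7, 91.0, 93.6 and 94.8 CPM in basal Glu-CB1-WT libraries and at 89.1, 89.3, 90.2, 94.5 and 103 CPM after the open field. In Glu-CB1-KO mice the lowest, median and highest values were 69.7, 82.1 and 96.5 CPM in the basal state and 83.0, 94.1 and 107 CPM after the open field. The CB1-WT groups overlapped nearly completely, and in Glu-CB1-KO mice the open field values were shifted upward with some overlap. In the GABA-CB1 line, CB1-WT libraries had 74.3, 87.4 and 99.3 CPM in the basal state and 90.7, 92.9 and 104 CPM after the open field. GABA-CB1-KO libraries had 88.3, 95.9 and 97.8 CPM in the basal state and 97.2, 97.8, 101, 107 and 116 CPM after the open field. In the CB1-KO mice of this line, 2 of the 5 open field libraries lay below the highest basal one and the other 3 above it. Over both lines, the fold change was 0.12 (log2, SE 0.03, 95% interval 0.05 to 0.18, adjusted p = 0.0167). By mice, the log2 difference was 0.03 (SE 0.05) in Glu-CB1-WT, 0.19 (SE 0.08) in Glu-CB1-KO, 0.12 (SE 0.07) in GABA-CB1-WT and 0.13 (SE 0.05) in GABA-CB1-KO mice. Whether the genotypes of a line differed in this was tested by the interaction of genotype and state. The interaction was not significant in either line (edgeR, adjusted p = 0.9999 and 0.953). Whether the lines differed in their response to the open field was not tested.

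The gene lies on the plus strand of chromosome 15, from 80287238 to 80398292 in mm10. Of the 41 members, 32 have an entry among the RefSeq promoters (GRCm38.p6). The 250 bases before the start of Cacna1i, at chr15:80286988-80287237, are shown because it is the gene called after the open field, and the capitals mark the 50 bases next to the start:
Cacna1i: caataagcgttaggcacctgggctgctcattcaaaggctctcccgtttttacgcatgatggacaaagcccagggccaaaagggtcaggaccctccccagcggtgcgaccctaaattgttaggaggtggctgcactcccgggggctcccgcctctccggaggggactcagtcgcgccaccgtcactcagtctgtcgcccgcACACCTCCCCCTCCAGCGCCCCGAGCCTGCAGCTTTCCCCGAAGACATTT
The GC content of this stretch is 62.4%. Motifs of factors induced or activated by neuronal activity were searched on both strands of the 250 bases before to 50 after the start. Neither the letters TGACGTCA (cAMP response element), TGANTCA (AP-1) and GCGNGGGCG (EGR) nor the MEF2 motif occurred in the window of Cacna1i. These motifs occurred in 1.79%, 7.81%, 5.55% and 3.69% of all 32851 promoters. Among the members, GCGNGGGCG was in 8 of the 43 promoters of 32 genes (Cacna1b, Cacna1c, Cacna1d, Cacna2d1, Cacna2d2, Hcn2, Scn7a and Scn8a), none of which was called after the open field, and TGANTCA in 1 of the 43, that of Cacng5.

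**Figure D3:**
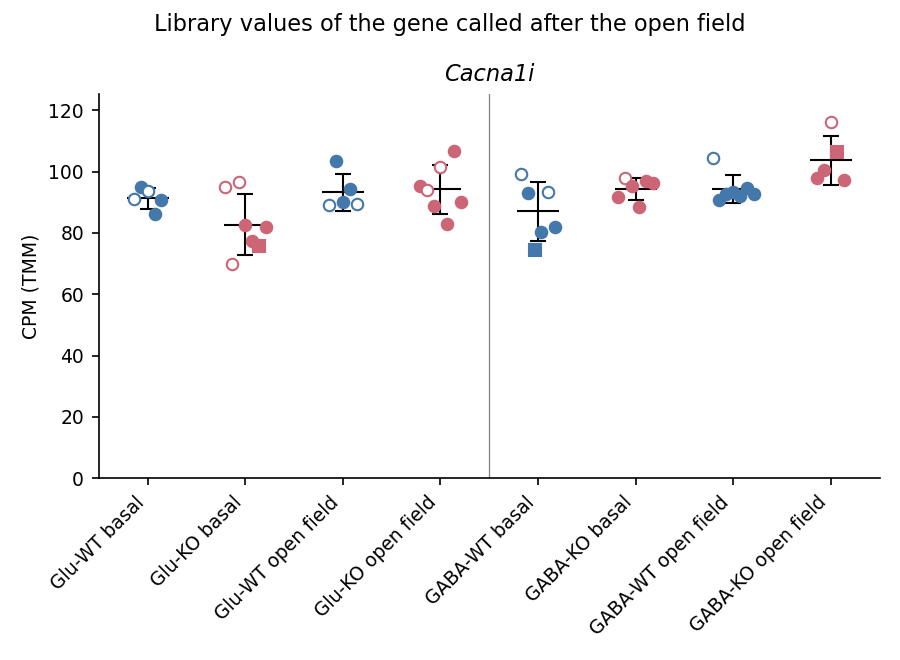
CPM of Cacna1i in each library by group, with CB1-WT in blue and CB1-KO in red, open symbols for the 14 libraries apart on the first principal component, squares for the 3 libraries with high choroid plexus markers, and mean ± SD in black. Cacna1i had its lowest group mean in basal Glu-CB1-KO mice (82.7 CPM) and its highest in GABA-CB1-KO mice after the open field (104 CPM).

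The call of Cacna1i moved with the 3 libraries of high choroid plexus markers. The basal ones among them had 75.8 and 74.3 CPM of Cacna1i, and the open field one had 107 CPM. Without these 3 libraries no member was called by edgeR, where 6.09% of all genes were, and the fold change of Cacna1i was 0.10 (adjusted p = 0.0575). All 5 choroid plexus markers were higher after the open field, none of them called. The part of this tissue in the result was not tested beyond leaving the libraries out. When each of the 48 libraries was left out in turn, Cacna1i was called each time, with an adjusted p from 0.00552 to 0.0342.

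Without the 14 libraries apart on the first principal component, 4 members were called after the open field, where 7.26% of all genes were. Cacna1i rose by 0.15 (SE 0.03, adjusted p = 0.00209), and Scn9a, a sodium channel best known from pain neurons, Scn3a and Cacnb4, a beta subunit, fell. Scn9a had 4.02, 4.94 and 5.88 CPM (lowest, median, highest) in the 16 basal and 2.52, 3.66 and 6.50 CPM in the 18 open field libraries that remained. Its log2 difference was -0.38 (SE 0.09, adjusted p = 0.00640). Scn3a had 66.8, 72.1 and 79.9 CPM against 56.8, 66.9 and 72.5 CPM, a log2 difference of -0.14 (SE 0.03, adjusted p = 0.00207). Cacnb4 had 189, 205 and 221 CPM against 159, 193 and 215 CPM, a log2 difference of -0.11 (SE 0.03, adjusted p = 0.0246). The ranges overlapped for each of the 3 genes.

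With all 48 libraries these genes had differences in the same direction that were not called, of -0.27 (SE 0.10, adjusted p = 0.0764) for Scn9a, -0.09 (SE 0.04, adjusted p = 0.209) for Scn3a and -0.08 (SE 0.05) for Cacnb4. With the first principal component as a covariate in place of the omission, 4 members were called, where 11.4% of all genes were: Cacna1i rose, and Scn9a, Scn3a and Cacnb4 fell. In the 14 libraries alone no member was called among 0.0317% of all genes, with differences of -0.08 (SE 0.15) for Scn9a, -0.05 (SE 0.05) for Scn3a and -0.07 (SE 0.03) for Cacnb4. These 3 genes have transcripts of 42.4%, 42.1% and 40.5% GC, and Cacna1i of 59.3%. Scn9a shares 319 bp of exon with Gm13629 on the opposite strand. Reads were counted by strand, but whether the libraries kept strand is not given in the sources used here and was not tested, so reads of the 2 genes may be mixed. The same holds for exon bases that Cacna1d shares with Chdh and Cacna1h with Tpsg1 on the opposite strand.

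**Figure D4:**
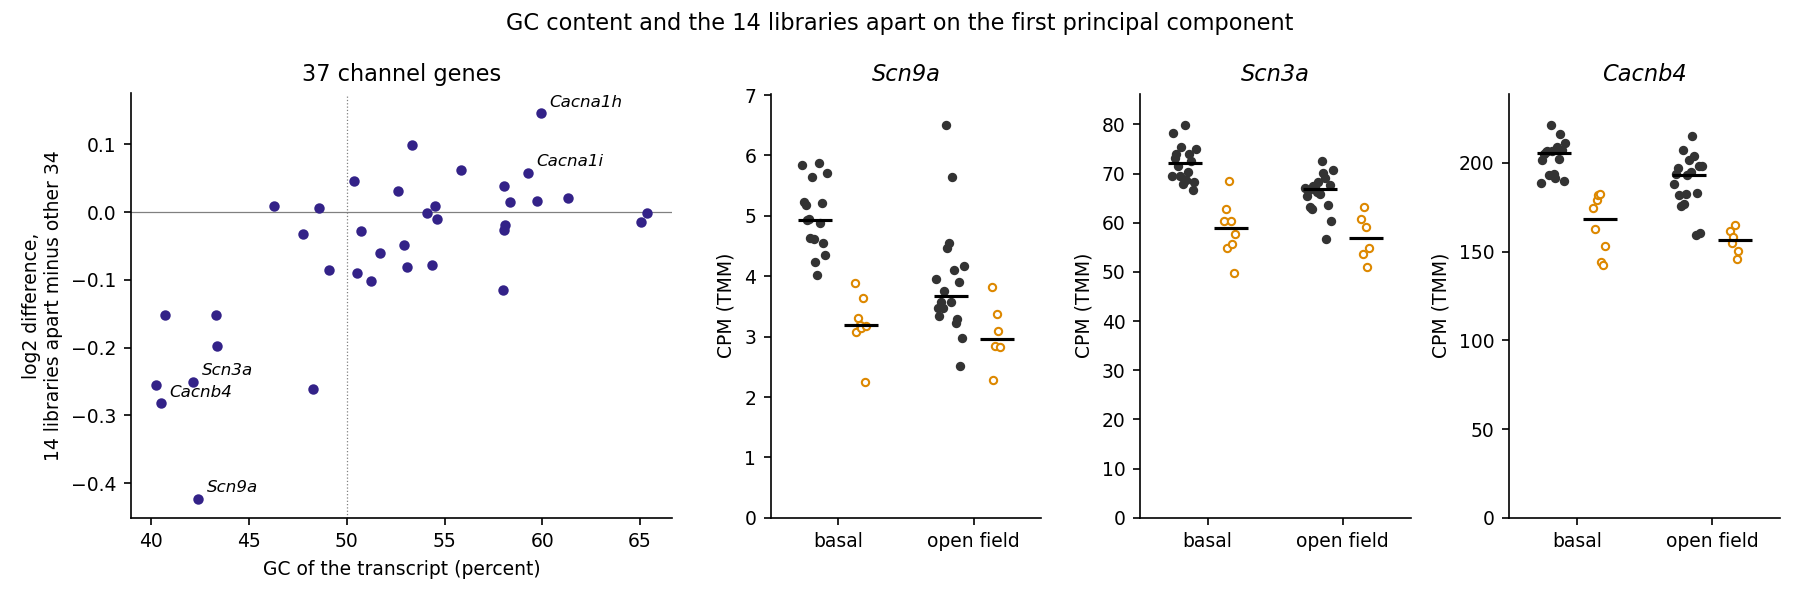
Left, GC content of the transcript in percent against the log2 difference between the 14 libraries apart on the first principal component and the other 34, with a point for each of the 37 tested members and a dotted line at 50%. Right, CPM of Scn9a, Scn3a and Cacnb4 by state, with filled points for the 34 and open orange points for the 14 libraries and a bar for each median; in the 34 libraries the medians were lower after the open field.

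Cacnb1, a calcium channel beta subunit, had 120, 135 and 152 CPM (lowest, median, highest) in the 24 basal and 129.8, 140.4 and 157 CPM in the 24 open field libraries, and the ranges overlapped widely. Its log2 difference was 0.06 (SE 0.02, adjusted p = 0.0786). When single libraries were left out, a second member joined Cacna1i in 8 of 48 cases. This was Cacnb1 without GABA-CB1-KO basal replicate 4 or open field replicate 5, Glu-CB1-KO basal replicate 1 or Glu-CB1-WT basal replicate 2 (lowest adjusted p 0.0183), and Scn9a without GABA-CB1-WT basal replicate 5 or open field replicate 4, Glu-CB1-KO open field replicate 6 or Glu-CB1-WT basal replicate 1 (lowest adjusted p 0.0317). Cacng7 was the remaining member with an unadjusted p under 0.05 (-0.04, SE 0.02, adjusted p = 0.224). For the 29 members with at least 10 CPM, the 95% intervals of the log2 difference lay between -0.18 and 0.18. By line, edgeR called 0 of 36 members in the Glu-CB1 line (1.3% of all genes) and 0 of 36 in the GABA-CB1 line (1.03%). DESeq2 called 0 members in either line, where it called 357 of 20384 and 280 of 20374 genes. At an unadjusted p under 0.05 there were 2 members in each line, against 12.8% of all genes in each. In the Glu-CB1 line the smallest p belonged to Cacna1i (0.11, SE 0.05) and Scn3a (-0.11, SE 0.05), and in the GABA-CB1 line to Cacna1i (0.13, SE 0.04) and Cacnb1 (0.08, SE 0.03).

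The effect of CB1 deletion in glutamatergic neurons was tested between Glu-CB1-KO and Glu-CB1-WT libraries, and no channel gene was called in either state. In the basal state edgeR called 0 of 36 members (0.0198% of all genes called) and DESeq2 called 0 (7 of 19904 genes called). At an unadjusted p under 0.05 there was 1 member, or 2.78% against 3.57% of all genes. This was Cacng3, a TARP, with 46.1 to 53.5 CPM in CB1-WT and 51.1 to 57.7 CPM in CB1-KO libraries (0.11, SE 0.04, adjusted p = 0.999). The 2 groups overlapped between 51.1 and 53.5 CPM. The 95% intervals of the 29 members with at least 10 CPM lay between -0.29 and 0.30.

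After the open field edgeR called 0 of 36 members (0.272% of all genes called) and DESeq2 called 0 (124 of 19894 genes called). At an unadjusted p under 0.05 there were 3 members, or 8.33% against 6.97% of all genes. Cacna2d2, the alpha-2-delta subunit enriched in interneurons and cerebellum, was at 27.2, 30.7, 31.7, 31.99 and 32.3 CPM in CB1-WT and between 31.03 and 37.4 CPM in CB1-KO libraries, with a median of 33.4 (0.15, SE 0.06, adjusted p = 0.481). Cacna1a was at 243.6 to 295 CPM against 208 to 254 CPM (-0.12, SE 0.05, adjusted p = 0.639). Scn8a differed by -0.09 (SE 0.04, adjusted p = 0.696). All of these ranges overlapped. Beside them, the 8 markers of GABAergic interneurons were higher in Glu-CB1-KO mice in 8 of 8 cases with 1 called, and their summed level was 711 to 868 CPM in CB1-WT and 861 to 963 CPM in CB1-KO libraries, a move whose part in the values of Cacna2d2 was not tested. Of the 5 thalamus markers 1 was higher and 2 were called lower, and their summed level was 130 to 152 CPM in CB1-WT and 104 to 122 CPM in CB1-KO libraries, without overlap. Of the 5 markers of CA3 and CA2, 0 were higher and 1 was called lower, and of the 5 markers of subiculum and cortex 4 were higher and 1 was called. The part of these in the values of the members was not tested either. In the basal state 8 of 8 interneuron markers were also higher in Glu-CB1-KO mice, with 0 called.

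Over both states of the Glu-CB1 line edgeR called 0 of 36 members (0.241% of all genes called) and DESeq2 called 0 (101 of 20384). At an unadjusted p under 0.05 there were 3 members, or 8.33% against 7.16% of all genes. They were Cacna2d2 (0.13, SE 0.06), Scn8a (-0.07, SE 0.03) and Cacng2 (-0.08, SE 0.04), with adjusted p between 0.629 and 0.691. The change of the genotype difference between states was not significant for any member, and 0 of 36 had an unadjusted p under 0.05, against 2.47% of all genes. In this comparison 0% of all genes were called by edgeR, and DESeq2 called 0 members and 0 of 20384 genes.

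The effect of CB1 deletion in GABAergic neurons was tested in the same way. In the basal state edgeR called 0 of 36 members (0.245% of all genes called) and DESeq2 called 0 (102 of 19931 genes called). At an unadjusted p under 0.05 there were 2 members, or 5.56% against 8.16% of all genes, both of them lower. Hcn2 was between 89.2 and 95.5 CPM in CB1-WT and between 79.7 and 91.0 CPM in CB1-KO libraries (-0.09, SE 0.03, adjusted p = 0.508), with an overlap between 89.2 and 91.0 CPM. Cacng2 was between 40.3 and 44.7 CPM in CB1-WT and between 39.3 and 43.1 CPM in CB1-KO libraries (-0.09, SE 0.03, adjusted p = 0.556). The summed level of the 8 interneuron markers was 793.5 to 911 CPM and 788.9 to 828 CPM in these groups, with 2 of 8 higher in CB1-KO mice and 0 called.

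After the open field edgeR called 0 of 36 members (0.0199% of all genes called) and DESeq2 called 0 (141 of 19849 genes called). At an unadjusted p under 0.05 there were 5 members, or 13.9% against 13.2% of all genes. Scn1a was between 172 and 192 CPM with a median of 186 in CB1-WT libraries and at 154, 159, 162, 176 and 182 CPM in CB1-KO libraries. The 2 ranges overlapped between 172 and 182 CPM. The log2 difference was -0.15 (SE 0.04, 95% interval -0.24 to -0.05, adjusted p = 0.245). It was -0.15 (adjusted p = 0.185) without the libraries apart on the first principal component and -0.12 (adjusted p = 0.446) without the library with high choroid plexus markers, which had the lowest Scn1a level of its group.

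Cacnb3 moved the other way, between 199 and 224 CPM in CB1-WT and at 221, 226, 226, 232 and 243 CPM in CB1-KO libraries (0.12, SE 0.04, adjusted p = 0.255). Cacnb1 was between 129.8 and 147 CPM in CB1-WT and at 142, 144, 151, 156 and 157 CPM in CB1-KO libraries (0.12, SE 0.04, adjusted p = 0.262). For both beta subunits the 2 groups overlapped in part. The remaining members with an unadjusted p under 0.05 were Cacna1i (0.13, SE 0.05) and Cacnb4 (-0.19, SE 0.09), with adjusted p of 0.301 and 0.367. The summed level of the 8 interneuron markers was 838 to 892 CPM in CB1-WT and 765 to 815 CPM in CB1-KO libraries, without overlap, with 1 of 8 higher in CB1-KO mice and 0 called. Its part in the values of Scn1a, a gene that interneurons also use, was not tested. The 5 markers of CA3 and CA2 were higher in CB1-KO mice in 5 of 5 cases, as were the 5 choroid plexus markers. Of the 5 markers of subiculum and cortex 0 were higher, and 0 genes of these 3 lists were called. The part of these lists in the values of the members was not tested either.

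**Figure D5:**
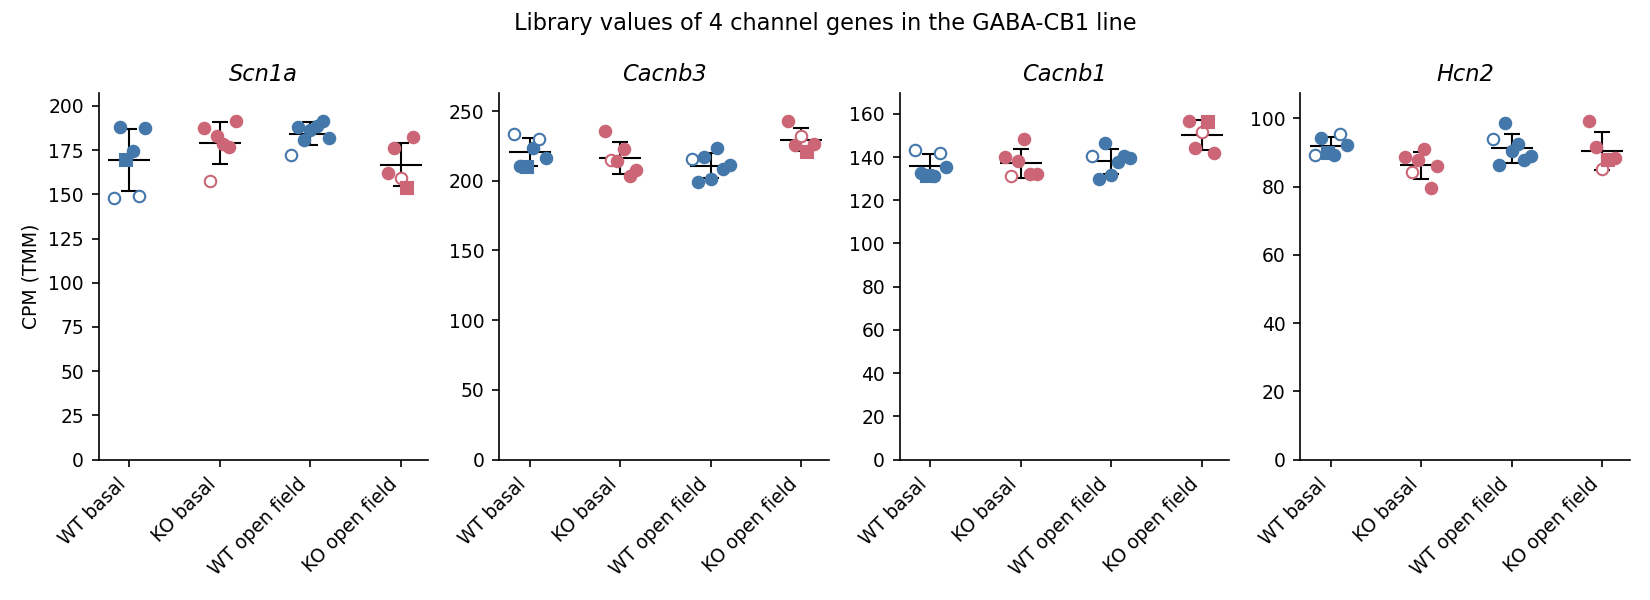
CPM of Scn1a, Cacnb3, Cacnb1 and Hcn2 in each library of the GABA-CB1 line by group, with CB1-WT in blue and CB1-KO in red, open symbols for libraries apart on the first principal component, squares for libraries with high choroid plexus markers, and mean ± SD in black. The mean of Scn1a after the open field was 167 CPM in CB1-KO and 184 CPM in CB1-WT libraries, and that of Cacnb1 was 150.1 and 138 CPM, neither of them called by edgeR.

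In the basal state Scn1a had a difference of the opposite sign, of 0.08 (SE 0.06), which was not significant. The change of the genotype difference between states was -0.23 (SE 0.08, 95% interval -0.40 to -0.06, adjusted p = 0.229) for Scn1a, 0.15 (SE 0.05, adjusted p = 0.2296) for Cacnb3 and -0.22 (SE 0.10, adjusted p = 0.326) for Scn2a1. In this comparison edgeR called 0 of 36 members (0% of all genes called) and DESeq2 called 0 (62 of 20374 genes called). At an unadjusted p under 0.05 there were 5 members, or 13.9% against 14.6% of all genes.

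Over both states of the GABA-CB1 line edgeR called 0 of 36 members (0.449% of all genes called) and DESeq2 called 0 (136 of 20374). At an unadjusted p under 0.05 there were 6 members, or 16.7% against 8.83% of all genes. Cacna1i had the smallest p with 0.12 (SE 0.04, adjusted p = 0.2899), followed by Cacnb1 (0.06, SE 0.03, adjusted p = 0.421) and Cacng2 (-0.09, SE 0.04, adjusted p = 0.425). With the first principal component as a covariate, Cacna1i was called (0.14, SE 0.03, adjusted p = 0.0295). Without the 3 libraries with high choroid plexus markers its difference was 0.10 (adjusted p = 0.490).

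Differences between the lines were tested as the genotype difference in the Glu-CB1 line minus that in the GABA-CB1 line. In the basal state edgeR called 0 of 37 members (0.212% of all genes called) and DESeq2 called 0 (66 of 20825 genes called). At an unadjusted p under 0.05 there were 3 members, or 8.11% against 8.29% of all genes. Hcn2 differed by 0.17 (SE 0.05, adjusted p = 0.257), Cacna1i by -0.26 (SE 0.09, adjusted p = 0.337) and Cacng3 by 0.21 (SE 0.09, adjusted p = 0.496). After the open field edgeR called 0 of 37 (0.34% of all genes called) and DESeq2 called 0 (111 of 20825 genes called). At an unadjusted p under 0.05 there were 4 members, or 10.8% against 11.3% of all genes. They were led by Cacna2d2 (0.26, SE 0.10, adjusted p = 0.277), Cacnb3 (-0.15, SE 0.06, adjusted p = 0.296) and Scn1a (0.17, SE 0.08, adjusted p = 0.441).

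Over both states edgeR called 0 of 37 (0.732% of all genes called) and DESeq2 called 0 (172 of 20825 genes called). At an unadjusted p under 0.05 there were 5 members, or 13.5% against 8.65% of all genes. They were led by Cacna2d2 (0.20, SE 0.07, adjusted p = 0.223), Cacna1i (-0.19, SE 0.07, adjusted p = 0.223) and Cacng3 (0.15, SE 0.06, adjusted p = 0.421). In the same comparison 8 of 8 interneuron markers had a higher genotype difference in the Glu-CB1 line, with 4 called, and 1 of 5 thalamus markers was called lower, and after the open field 8 of 8 interneuron markers were higher with 3 called. Their part in the values of the members was not tested. Without the 14 libraries apart, the difference of Cacna1i was -0.27 (adjusted p = 0.0321). For Cacna1i the genotype difference in the basal state was -0.14 (SE 0.07) in the Glu-CB1 line and 0.12 (SE 0.06) in the GABA-CB1 line, neither of them called. Between the CB1-WT mice of the lines, GABA-CB1 minus Glu-CB1, edgeR called 0 of 37 members (0% of all genes called). DESeq2 called 0 members and 0 of 20825 genes. The 2 members with an unadjusted p under 0.05, or 5.41% against 3.67% of all genes, were Cacna2d2 (0.11, SE 0.05) and Cacna1c (-0.09, SE 0.05). Both had an adjusted p of 0.9998. In this comparison 8 of 8 interneuron markers were higher, with 0 called, and their part in these values was not tested.

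Proteins that bind or regulate these channels were read from a list of 29 genes, which comprises partners of HCN channels, of sodium channels and the axon initial segment, of calcium channels, and the sodium leak channel complex. In the basal GABA-CB1 comparison 3 of 28 tested genes fell, where 0.206% of all genes did, and 0 rose. The list was chosen with earlier results of these data known, so this share does not test the list. Rimbp2, which tethers calcium channels to the release site, was between 138 and 160.2 CPM in CB1-WT and between 115 and 129 CPM in CB1-KO libraries, without overlap (-0.28, SE 0.04, adjusted p = 0.00621). Stac2, an adaptor that reduces the inactivation of L-type channels, was between 76.1 and 98.6 CPM against 61.0 and 75.9 CPM, also without overlap (-0.37, SE 0.07, adjusted p = 0.0390). Rem2, a small GTPase that inhibits calcium channels, was between 19.4 and 21.5 CPM against 15.6 and 19.2 CPM (-0.28, SE 0.05, adjusted p = 0.0426). For each of these 3 genes the 6 CB1-KO libraries lay below the 6 CB1-WT libraries. None of the 3 was called with the range of animal numbers as covariate (adjusted p = 0.0736 for Rimbp2 and Stac2 and 0.265 for Rem2) or with a block for the replicate number (0.0739, 0.0900 and 0.1096), and their log2 differences there ran from -0.43 to -0.28. The 6 CB1-WT libraries fell in the ranges as 4, 0 and 2 and the 6 CB1-KO libraries as 2, 3 and 1. Without the libraries apart on the first principal component, Rimbp2 was called (adjusted p = 0.0267) and Stac2 and Rem2 were not (0.111 and 0.191). In the fit of all 48 libraries, Stac2 was called (adjusted p = 0.00634) and Rimbp2 and Rem2 were not. When each of the 12 libraries was left out, Rimbp2 was called each time. Stac2 was called in 4 cases, without CB1-KO replicate 3 or 4 or CB1-WT replicate 1 or 3, and Rem2 in 1 case, without CB1-KO replicate 4, with adjusted p otherwise of up to 0.0951 and 0.131.

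Over both states of the GABA-CB1 line, 1 of 29 partner genes, Stac2, fell (-0.29, SE 0.06, adjusted p = 0.0188), where 0.449% of all genes were called. After the open field, Stac2 was between 61.0 and 94.3 CPM in CB1-KO and between 72.4 and 90.7 CPM in CB1-WT libraries, so the ranges overlapped. Stac2 was also the only partner gene whose genotype difference was called as different between the lines. It differed by 0.50 (SE 0.10, adjusted p = 0.0102) in the basal state, where 0.212% of all genes were called. Over both states it differed by 0.31 (SE 0.07, adjusted p = 0.0221), where 0.732% were. In the Glu-CB1 line its basal means were 87.6 CPM in CB1-KO and 80.1 CPM in CB1-WT mice. After the open field they were 81.0 and 86.4 CPM, the other way round. With the replicate block its adjusted p was 0.0636 over both states of the GABA-CB1 line, 0.0344 for the difference between lines in the basal state and 0.0826 for that over both states, and without the 14 libraries apart it was 0.117, 0.142 and 0.314. Without GABA-CB1-KO open field replicate 2 or 3, Stac2 was not called over both states of that line (adjusted p = 0.0541 and 0.0517), and without replicate 1 of this group Rimbp2 and Rem2 were called with it. In the 11 other comparisons, the open field among them, no partner gene was called.

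The 3 genes whose group means were most like those of Cacna1i over the 8 groups, by Pearson r of log2 CPM, were Poc1b (0.98), 1700017B05Rik (0.97) and C2cd3 (0.97). With 8 group means and all tested genes searched, such values are a description only.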

How the data were processed

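RNA of the hippocampal CA region of 48 mice was sequenced, 1 library per mouse, in 8 groups taken from the sample labels, with 25892654 to 34091080 counted reads per library. For the GABA-CB1 open field groups the study's text gives the group sizes the other way round, and the labels were followed. The authors amplified the RNA with NuGEN's Ovation system, trimmed reads with bbduk, aligned them to mm10 with STAR 2.6.0a and counted them by strand with featureCounts 1.6.2. The values they deposited are raw counts per gene symbol, without normalization, with exon lengths. No measurement column was left unused. Of the 44 members, 3 are not reported here; they stayed in every fit and in the adjustment over all genes, and all counts of members are over the other 41. Trimming and alignment are part of the counts and were not repeated. Whether reads were collapsed by molecular identifiers is not given in the sources used here, and the error used in each test is the spread between mice.

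Counts were tested with edgeR 4.0.16 in R 4.3.3 (TMM, filterByExpr by group, quasi-likelihood test, Benjamini-Hochberg adjustment over all tested genes, threshold 0.05) in 15 comparisons: 4 fits of 12 libraries, 2 of the 24 libraries of a line and 1 of all 48. Standard errors were derived from the F statistic. Levels are CPM after TMM over all libraries, divided by exon length in kb where genes are compared. Principal components used the 500 genes of highest variance without the members. GC content was taken from GENCODE vM21 and promoters from RefSeq, whose mouse build is that of mm10. The scripts were tested on simulated data.

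The members, gene lists, tests and alternatives were chosen with earlier results of these data known. Named are members called in any comparison, up to 3 members per comparison with the smallest unadjusted p under 0.05, untested members, called partner genes and the 3 genes most like the first called member. Scn9a, Scn3a and Cacnb4 are described further after their values were seen. Alternatives were DESeq2 1.42.0, RLE size factors, other filters on low counts, all 48 libraries in 1 fit, the range of animal numbers as covariate, a block for the replicate number, and the omission of single libraries. The first principal component as covariate and the omission of the 14 libraries, of all but them, or of the 3 libraries with choroid plexus markers were chosen after seeing the data, as were all alternatives for the partner genes. No pair of libraries of a group, of 123, was a duplicate (lowest chi-square per degree of freedom 2.93).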

Additional observations from a re-analysis of the deposited data

Results flagged for a closer look

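In 112 checks, of 14 named channel genes in 8 groups, 5 values, from 4 libraries, lay far from the others of their group by Dixon's test, where chance alone gives about 1 in 20 groups. GABA-CB1-WT open field replicate 1, which is among the 14 libraries apart on the first principal component, was high in Cacna1i with 104 CPM (next 94.5 CPM) and low in Scn3a with 51.0 CPM (next 65.9 CPM). Cacna1a was low in Glu-CB1-KO open field replicate 5 with 208 CPM, where the next library had 242 CPM. Hcn2 was high in Glu-CB1-KO basal replicate 1, also among the 14, with 102 CPM (next 93.8 CPM). Scn2a1 was low in GABA-CB1-KO basal replicate 2, also among the 14, with 364 CPM (next 443 CPM).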

How the results depend on the processing

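The open field comparison over both lines called 1 channel gene, Cacna1i. The count was 4 with the first principal component as covariate, 4 without the 14 libraries apart, 0 with only those 14 libraries, 0 without the 3 libraries with choroid plexus markers, 2 with the range of animal numbers as covariate (Cacna1i and Scn9a, adjusted p = 0.0488 for the latter), and from 1 to 2 when each library was left out. It was 1, again Cacna1i, with DESeq2, RLE size factors, both filters on low counts and the replicate block (adjusted p = 0.0218). Over the 10 alternatives other than single libraries, the log2 difference of Cacna1i ran from 0.10 to 0.15. Counts of 0 became 1 with the first principal component as covariate in the GABA-CB1 line over both states and for the open field in that line, and without the 14 libraries for the open field in the Glu-CB1 line (Scn3a) and for the difference between lines over both states (Cacna1i). The other counts of 0 stayed at 0, from 0 to 0 when each library was left out. Of the named channel genes in their named comparisons, only Cacna1c between the CB1-WT mice of the lines changed sign, to 0.027 in the 14 libraries alone. Same-numbered CB1-WT and CB1-KO libraries of a line and state correlated from -0.43 to 0.39 over 21 pairs, 4 of them over 0.1. These values cannot tell whether the replicate number paired mice. The replicate block changed no call of a channel gene. The count of partner genes called in the basal GABA-CB1 comparison was 3, and it was 0 with the range of animal numbers as covariate and with the replicate block. With the first principal component as covariate, and without the 3 libraries with choroid plexus markers, Rimbp2 and Stac2 were called and Rem2 was not. The count was 1 in the fit of all 48 libraries (Stac2) and without the 14 libraries (Rimbp2), and from 1 to 3 without single libraries. Over both states of that line it was 1, and 2 with DESeq2 and with the first principal component (Rimbp2 added), 0 with the replicate block and without the 14 libraries, and from 0 to 3 without single libraries. For the difference between lines it was 1, and it was 0 with only and without the 14 libraries in the basal state and over both states, 2 with the range of animal numbers (Rimbp2 added) in the basal state, and 0 with the replicate block over both states. For the open field over both lines it was 0, and it was 1 with the first principal component and without the 14 libraries (Fgf14), 1 without the 3 libraries with choroid plexus markers (Rem2), and from 0 to 1 without single libraries (Rem2 in 3 cases, Gem in 1). Group means moved by at most 0.64% under RLE size factors. The animal range as covariate was not run between CB1-WT mice of the lines, since ranges are nested in lines. The causes of these shifts were not tested.

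Members under 1 CPM had few counts, and their differences were not resolved at this depth. Log2 differences of about 0.1 in the comparisons of 12 libraries were near the half-width of the 95% intervals, with a median from 0.11 to 0.13 for members of at least 10 CPM.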
